A study of Homo sapiens with 12 samples.

Results

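Long noncoding RNAs with a number in place of a name were followed in MV3, an established human melanoma line from a lymph node metastasis, after exposure to macrophage media. A gene was a member if its symbol in the deposited tables was LINC followed by 5 digits and nothing more, and if it had at least 300 reads summed over all 12 libraries. This gave 95 members of 1877 numbered LINC identifiers (936 of them with at least 1 read), in tables of 58288 gene identifiers. LINC00707, LINC00460 and LINC00294 were named in that rule with their values known, and all 3 also met the count threshold, with 6835, 864 and 10763 reads. The members were thus chosen by a measured value, the read count summed over groups, and by no test between groups. A high level in 1 group can still carry a gene over that threshold. Just inside it were LINC01191 (354 reads), LINC01684 (335), LINC01429 (331), LINC02057 (328) and LINC01399 (305), and just outside were LINC01003 (297), LINC01583 (295), LINC01358 (290), LINC01504 (287) and LINC00526 (284).

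All cells were MV3, maintained in DMEM with 10% serum and held for 3 h in RPMI with 1% serum before the test medium was added for 24 h. The Ctrl group received fresh RPMI medium that no cells had conditioned. The M0 group received RPMI conditioned by macrophages that had been made from the THP-1 monocyte line with the phorbol ester PMA. The M1 group received medium of such macrophages further polarized with LPS and IFNγ, and the M2 group medium of those polarized with IL4 and IL13. Each group had 3 libraries. Whether the 3 replicates of a group were separate cultures is not in the labels, so a p-value here refers to the variation among these libraries, part or all of which could be technical. MV3 is 1 cell line and THP-1 another, so nothing here speaks for other melanomas or for macrophages from blood. Ctrl differs from the other groups by conditioning itself as well as by the kind of macrophage.

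Long intergenic noncoding RNAs are transcribed from their own promoters between protein-coding genes, and are often spliced and polyadenylated like messenger RNAs. They are usually less abundant than messenger RNAs and vary more between cell types. Described modes of action include effects on a neighbouring gene through the act of transcription or through an enhancer, binding of chromatin or splicing proteins, and binding of microRNAs. Some transcripts first named this way turned out to encode small proteins. A LINC number is a registry entry, so a set of them shares naming and no common function.

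All 95 members passed the filter on low counts and were tested. Their totals ran from 305 to 15451 reads with a median of 1123, and together they held 251458 reads, 0.0652% of all counts. In each of the 4 groups 70 members had at least 75 reads, and the other 25 were below that in at least 1 group. Members among these 25 can have reached the threshold through the groups where they were high. A member with a total near the threshold can also fall below 75 reads in a group sequenced less deeply. GENCODE release 29 lists 70 of the 95 as lincRNA, 10 as processed transcripts, 4 as antisense and 2 as bidirectional promoter transcripts. It lists 7 as kinds of transcribed pseudogene, among them LINC01085. It lists 2 as protein-coding, namely LINC00094 (now BRD3OS) and LINC00116 (now MTLN, which encodes the mitochondrial microprotein mitoregulin). A current symbol other than the LINC number exists for 18 members. An annotated gene on the opposite strand overlaps 48 members, in exons for 26 of them, and 18 share exons with another gene on their own strand. The strand setting of the counting is not given in the sources used here, so reads of such overlapping genes cannot be told apart.

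Promoters are shown for 4 members of different patterns that have an entry in the promoter table: LINC00460 and LINC01085, lowest after M1 medium, LINC00294, highest after M1 medium, and LINC01133, highest after M2 medium. They come from RefSeq (GRCh38.p14), on the plus strand for all 4 genes, and hold 250 bases before and 50 from the start of the gene onward. Capitals mark matches to 1 of 4 short motifs: NF-kB (GGANTTNCC), the interferon-stimulated response element (TTTCNNTTT), AP-1 (TGANTCA) and the ATF4 composite element (TGATGNAA), each searched on both strands. The regions are chr13:106376314-106376613 for LINC00460, chr4:14111718-14112017 for LINC01085, chr1:159960974-159961273 for LINC01133 and chr11:33075900-33076199 for LINC00294.
LINC00460: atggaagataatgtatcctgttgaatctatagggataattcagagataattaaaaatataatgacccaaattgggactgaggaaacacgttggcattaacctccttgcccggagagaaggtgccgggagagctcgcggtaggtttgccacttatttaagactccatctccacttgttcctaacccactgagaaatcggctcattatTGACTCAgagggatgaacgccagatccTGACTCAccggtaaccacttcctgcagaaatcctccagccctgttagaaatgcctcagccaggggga
LINC01085: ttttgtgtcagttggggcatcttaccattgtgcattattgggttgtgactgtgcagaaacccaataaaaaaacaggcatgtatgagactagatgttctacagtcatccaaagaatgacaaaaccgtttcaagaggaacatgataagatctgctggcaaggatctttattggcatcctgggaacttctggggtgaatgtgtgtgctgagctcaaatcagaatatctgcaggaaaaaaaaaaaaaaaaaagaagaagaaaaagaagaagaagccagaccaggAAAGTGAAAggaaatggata
LINC01133: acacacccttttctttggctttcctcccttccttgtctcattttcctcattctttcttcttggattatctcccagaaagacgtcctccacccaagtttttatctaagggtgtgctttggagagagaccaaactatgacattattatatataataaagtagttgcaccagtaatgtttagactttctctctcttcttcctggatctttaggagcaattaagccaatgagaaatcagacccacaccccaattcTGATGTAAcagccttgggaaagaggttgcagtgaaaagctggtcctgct
LINC00294: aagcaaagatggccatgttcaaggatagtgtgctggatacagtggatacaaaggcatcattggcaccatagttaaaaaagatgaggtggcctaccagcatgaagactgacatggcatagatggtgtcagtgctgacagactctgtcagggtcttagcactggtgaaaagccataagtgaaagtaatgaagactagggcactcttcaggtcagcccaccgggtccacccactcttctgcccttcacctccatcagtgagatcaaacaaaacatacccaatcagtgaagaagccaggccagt
The LINC00460 promoter holds 2 AP-1 matches, beginning 44 and 17 bases before the start, and its RefSeq start lies 2087 bases from the GENCODE start. The LINC01085 promoter holds 1 match to the interferon-stimulated response element on the minus strand. In LINC01133 an ATF4 composite element begins at base 2 after the start. No motif match lies in the LINC00294 window.

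Among 35116 RefSeq promoters of the same length, the AP-1 letters occur in 7.71%, and among the 73 members with a promoter entry in 11 (15.07%). The other AP-1 members include LINC00346 and LINC00339, each with 2 matches. The interferon-stimulated response element occurs in 10.48% of all promoters and in 9 of the 73 (12.33%), LINC01152 and LINC01444 included. The ATF4 composite element occurs in 3.62% of all and in 3 of the 73 (4.11%), and the NF-kB letters occur in 4.27% of all and in 1 of the 73 (1.37%), LINC01006. A match is a description of the sequence, not evidence of a bound site.

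LINC00707 fell most after M1 medium. This lincRNA of chromosome 10 (ENSG00000238266, GRCh38 chr10:6779549-6879450, plus strand), described in several carcinomas, was at 41.03, 48.1 and 44.2 CPM (read counts scaled to the library total with TMM factors) in the Ctrl libraries and at 11.6, 11.1 and 17.3 CPM after M0 medium. After M2 medium it was at 12.2, 9.44 and 9.62 CPM, and after M1 medium at 1.45, 0.80 and 1.25 CPM. Every Ctrl library lay above every other library, every M1 library lay below every other library, and the M0 and M2 libraries overlapped. The level after M1 was 11.2-fold lower than after M0 (log2 fold change -3.49 ± 0.32 SE, adjusted p = 4.22e-09), 8.80-fold lower than after M2 (adjusted p = 1.92e-08) and 37.3-fold lower than in Ctrl (log2 -5.22 ± 0.25, adjusted p = 4.79e-12). M0 and M2 did not pass the test against each other (log2 -0.35 ± 0.24, adjusted p = 0.128). The gene shares exons on its strand with 3 other annotated genes, between which its reads could have been split. In bulk RNA, a lower level in every cell and fewer cells that express a gene cannot be told apart.

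**Figure D1:**
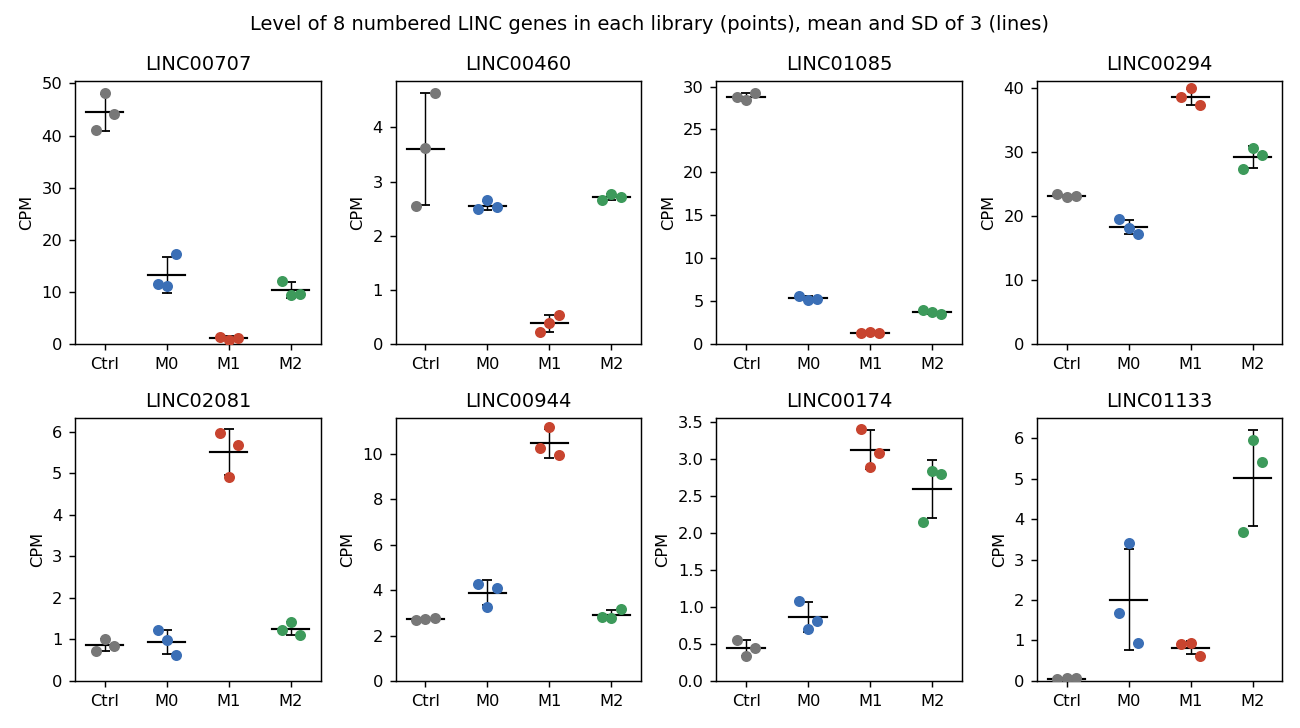
Level in CPM (vertical axes, linear, each starting at 0) of 8 numbered LINC genes in the 3 libraries of each group (horizontal axes). Points are libraries, long lines means and error bars SD over 3 libraries. LINC00707, LINC00460 and LINC01085 are lowest in the M1 libraries, LINC00294, LINC02081 and LINC00944 are highest there, and LINC01133 is highest in the M2 libraries.

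LINC00460 also fell after M1 medium, and there the other 2 media stood near Ctrl. This lincRNA of chromosome 13 (ENSG00000233532, chr13:106374477-106384315, plus strand) is described as raised in head and neck and other carcinomas. It was at 2.56, 3.62 and 4.63 CPM in Ctrl, at 2.497, 2.65 and 2.52 CPM after M0, at 2.66, 2.77 and 2.72 CPM after M2, and at 0.228, 0.384 and 0.546 CPM after M1. The M1 libraries lay below all others, on 41 reads in the group, while the Ctrl libraries overlapped both the M0 and the M2 libraries. M1 was 6.61-fold lower than M0 (log2 -2.73 ± 0.31, adjusted p = 1.94e-06), 7.02-fold lower than M2 (adjusted p = 1.59e-06) and 9.24-fold lower than Ctrl (adjusted p = 3.96e-08). Against Ctrl, M0 had a log2 fold change of -0.48 ± 0.25 (adjusted p = 0.0619) and M2 one of -0.40 ± 0.24 (adjusted p = 0.107). The first of these crossed the threshold under 4 of 19 alternatives and the second when Ctrl replicate 1 was left out (log2 -0.62).

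LINC01085 followed the same order of groups as LINC00707. It lies on chromosome 4 (ENSG00000248698, chr4:14111968-14140052, plus strand) and is annotated as a transcribed processed pseudogene, so its counts are uncertain where a near-identical parent copy shares reads. Its level was 28.7, 28.4 and 29.2 CPM in Ctrl, 5.601, 5.17 and 5.26 CPM after M0, 3.96, 3.73 and 3.54 CPM after M2, and 1.32, 1.38 and 1.26 CPM after M1. No 2 groups overlapped, and all 6 differences passed the test. M1 was 21.8-fold lower than Ctrl (log2 -4.45 ± 0.04, adjusted p = 1.46e-14), M0 was 5.38-fold lower than Ctrl (adjusted p = 3.85e-12), and M1 was 4.06-fold lower than M0 (adjusted p = 1.44e-09).

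LINC00294 moved in opposite directions after different media. The gene is a single exon on chromosome 11 (ENSG00000280798, chr11:33076149-33079454, plus strand), inside TCP11L1 but outside its exons, and it overlaps exons of CSTF3 and PIGCP1 on the other strand. It was at 23.4, 23.0 and 23.1 CPM in Ctrl, 19.5, 18.1 and 17.3 CPM after M0, 38.6, 40.0 and 37.4 CPM after M1 and 27.4, 30.8 and 29.7 CPM after M2. The 4 groups did not overlap. It was lower after M0 than in Ctrl (log2 -0.34 ± 0.05, adjusted p = 0.00106) and higher after M1 (log2 0.74 ± 0.03, adjusted p = 2.1e-07) and after M2 (log2 0.34 ± 0.05, adjusted p = 0.000797). M1 was 2.11-fold above M0 (adjusted p = 1.99e-08). The host gene TCP11L1 was higher than in Ctrl after all 3 media, by log2 0.67 after M0 (adjusted p = 1.16e-07), 0.98 after M1 and 0.76 after M2. Of the other members only LINC01128, on chromosome 1, was also called in opposite directions against Ctrl, with log2 -0.22 after M0 and 0.22 after M1.

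Across all members, the counts of called genes were read against all 14088 genes tested. M1 and M0 differed for 46 of 95 members (48.4%), of which 27 were higher and 19 lower after M1. Over all genes 52.2% were called, 25.5% higher and 26.7% lower. M2 and M0 differed for 23 members, 12 higher and 11 lower, beside 25.2% of all genes (12.5% higher, 12.7% lower). M1 and M2 differed for 28 members, 16 higher and 12 lower in M1, beside 32.5% of all genes (15.9% higher, 16.6% lower). A joint test of any difference among M0, M1 and M2 called 50 members (52.6%) and 56.6% of all genes. The shares of members called were within 5 percentage points of the background in these comparisons and in those with Ctrl. The count for M2 against M0 rested on single libraries: leaving out M0 replicate 3 gave 10, leaving out M2 replicate 2 gave 15 and leaving out M2 replicate 3 gave 11.

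Against Ctrl, more members were called in every medium. M0 medium gave 62 calls, 33 higher and 29 lower, beside 61.7% of all genes (31.1% higher, 30.6% lower). M1 medium gave 67 calls, 38 higher and 29 lower, beside 70.2% of all genes (35.2% higher, 35% lower). M2 medium gave 60 calls, 33 higher and 27 lower, beside 66.5% of all genes (34.1% higher, 32.4% lower). The 3 comparisons share the Ctrl libraries. The median log2 fold change over members was 0.02 for M0, 0.17 for M1 and 0.09 for M2, and over all genes it was 0.00, 0.00 and 0.02.

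At least 2-fold differences that also passed the test numbered 20 members for M1 against M0 (21.1%, all genes 9.19%), 6 for M2 against M0 (6.32%, all genes 2.22%) and 10 for M1 against M2 (10.5%, all genes 4.84%). Against Ctrl they numbered 27 for M0 (28.4%, all genes 16.4%), 39 for M1 (41.1%, all genes 23.6%) and 33 for M2 (34.7%, all genes 19.7%). Among 1407 other long noncoding genes tested, which had no minimum of 300 reads, the share with such a difference was 13.6% for M1 against M0, 4.34% for M2 against M0 and 6.61% for M1 against M2. Against Ctrl it was 28% for M0, near the members' share, 33.3% for M1 and 29.4% for M2. Among 11840 protein-coding genes it was 8.41% for M1 against M0 and 22.1% for M1 against Ctrl. No test of these shares was made, and expression level differs between the sets.

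**Figure D2:**
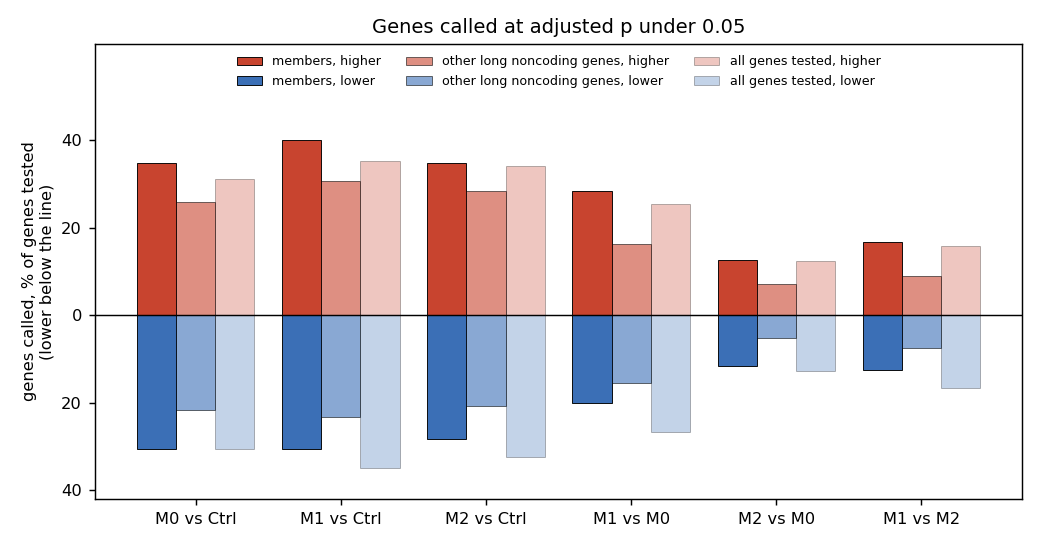
Share of genes called at adjusted p under 0.05 (vertical axis, % of genes tested; higher above the line, lower below it) in the 6 comparisons (horizontal axis), for the 95 members, 1407 other long noncoding genes and all 14088 genes. The members' total is 48.4% for M1 against M0, beside 31.9% of other long noncoding genes and 52.2% of all genes.

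By pattern, 82 members were called in the joint test among the media or in at least 1 comparison with Ctrl, and 13 in neither. Of those 13, LINC00632 was called for M1 against M0 alone (log2 0.88 ± 0.45, adjusted p = 0.0268), so 12 members had no pairwise call. Of the 82, the highest mean was in Ctrl for 29, in M0 for 16, in M1 for 22 and in M2 for 15. The lowest was in Ctrl for 35, in M0 for 17, in M1 for 21 and in M2 for 9. After all 3 media 26 members were higher than Ctrl and 20 were lower. The patterns here and below were not counted over all genes tested. Their counts therefore describe the members and cannot show a trait particular to them. The 12 members with no pairwise call had group means from 0.647 to 9.08 CPM. They include LINC01578 (CHASERR, which represses its neighbour CHD2 in cis), at 8.68 CPM in Ctrl and 7.84 CPM after M1, and LINC00346. No call does not show that these levels were equal.

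**Figure D3:**
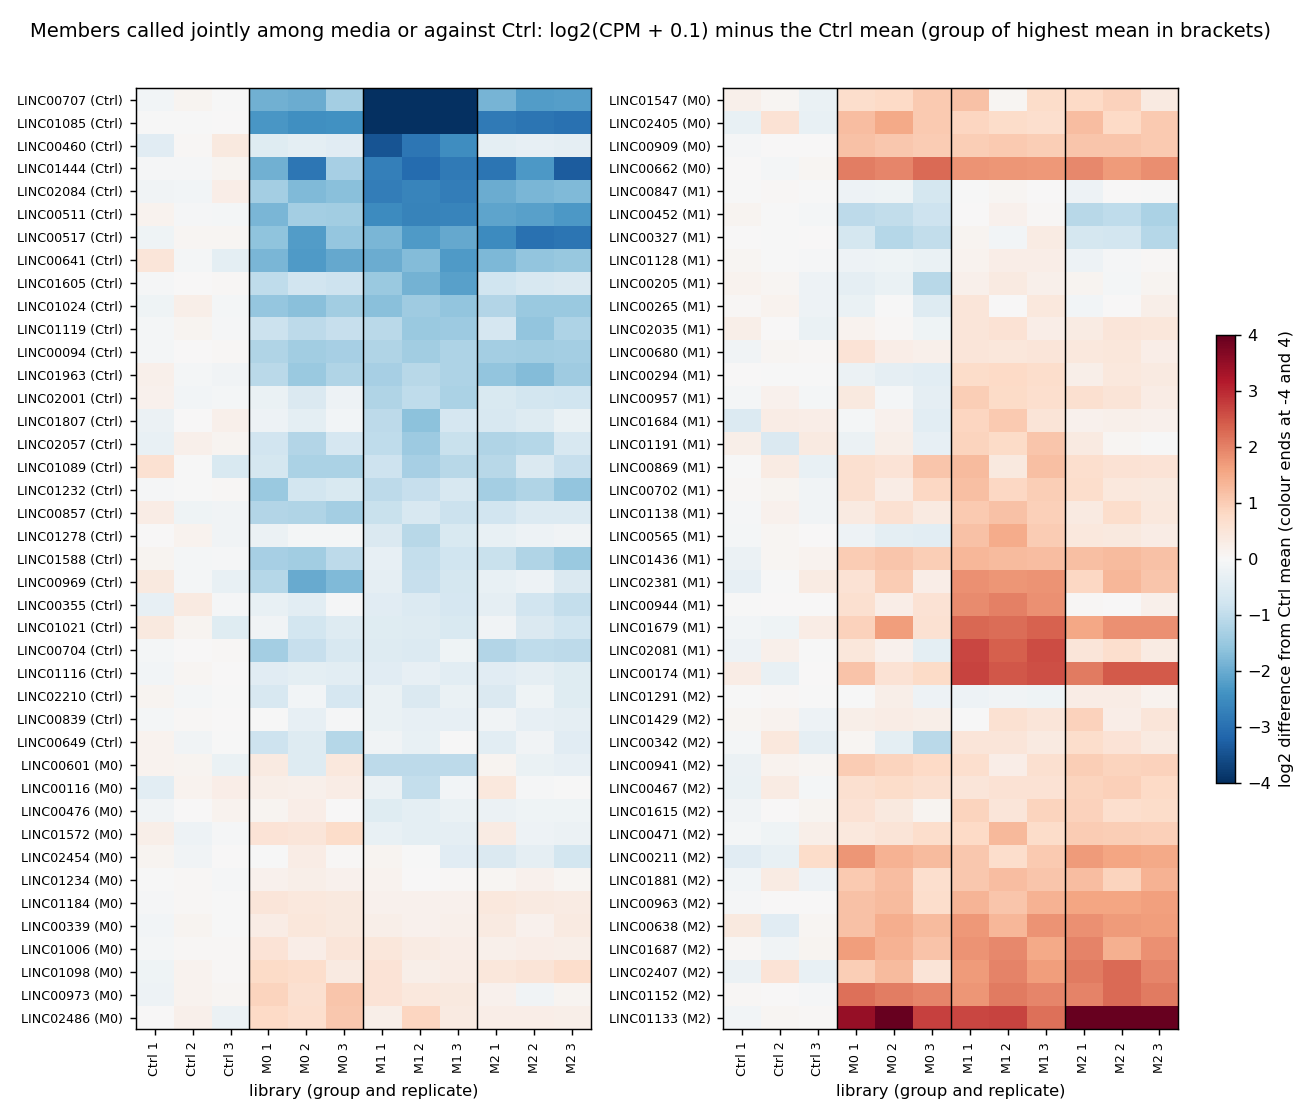
The 82 members called in the joint test among the media or against Ctrl (rows, with the group of the highest mean in brackets) in the 12 libraries (columns). Colour is log2(CPM + 0.1) minus the mean of the Ctrl libraries, with the scale ending at -4 and 4. LINC00707 and LINC01085 pass the blue end in the M1 libraries and LINC01133 passes the red end in the M2 libraries.

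After M1 medium 14 members were above both M0 and M2. LINC02081 (now SCAT1, chr17:78605233-78632155, minus strand) had the largest fold among them. Its reads numbered 89 in Ctrl, 75 after M0, 116 after M2 and 596 after M1. Without the M1 reads its total would be below the threshold of 300, so LINC02081 was a member only through that group. It was at 0.731, 1.01 and 0.844 CPM in Ctrl, at 1.22, 0.978 and 0.631 CPM after M0, at 1.22, 1.42 and 1.11 CPM after M2, and at 5.96, 4.90 and 5.67 CPM after M1. The M1 libraries lay above all others. M0 overlapped both Ctrl and M2, and the M2 libraries lay above those of Ctrl. M1 was 5.84-fold above M0 (log2 2.55 ± 0.27, adjusted p = 1.12e-07) and 4.41-fold above M2 (adjusted p = 4.54e-07).

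LINC00944 (chr12:126729787-126772411, minus strand) was at 2.67, 2.71 and 2.75 CPM in Ctrl, 4.29, 3.26 and 4.10 CPM after M0, 2.82, 2.77 and 3.15 CPM after M2 and 10.3, 11.2 and 9.96 CPM after M1. All M1 libraries lay above all others, and M1 was 3.59-fold above M2 (log2 1.85 ± 0.08, adjusted p = 1.6e-08) and 2.67-fold above M0 (adjusted p = 2.36e-07). LINC01679 and LINC02381 rose after all 3 media and most after M1, with M1 against Ctrl at log2 2.43 ± 0.16 and 1.85 ± 0.19. LINC01191 and LINC01684, near the count threshold, were called higher than Ctrl after M1 and in neither other medium, by log2 0.94 and 0.90.

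A second kind among those 14 fell after M0 and M2 medium and stood nearer to Ctrl after M1. LINC00452 (chr13:113888306-113923512, plus strand) was at 20.1, 18.4 and 18.0 CPM in Ctrl and at 18.97, 21.3 and 19.5 CPM after M1, and these groups overlapped. After M0 it was at 9.01, 9.36 and 10.6 CPM and after M2 at 8.57, 9.19 and 7.83 CPM. The M1 level was 2.33-fold above M2 (log2 1.22 ± 0.08, adjusted p = 9.59e-08) and 2.06-fold above M0 (adjusted p = 4.88e-07), and against Ctrl it had log2 0.08 ± 0.07 (adjusted p = 0.453). LINC00327 had the same pattern of calls, at mean levels of 1.55 CPM in Ctrl, 0.766 after M0, 1.70 after M1 and 0.818 after M2. LINC00704 (MANCR, named as a mitotically associated RNA) fell against Ctrl after all 3 media, with log2 -0.96 after M0, -1.12 after M2 and -0.40 after M1.

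LINC00565 (now SWINGN, chr13:113926514-113928844, minus strand) lies 3.0 kb from LINC00452 on the opposite strand, and it is described as an RNA that binds the SWI/SNF complex and acts on the nearby growth factor gene GAS6. It was at 2.95, 3.35 and 3.16 CPM in Ctrl, 2.73, 2.38 and 2.35 CPM after M0, 7.23, 8.99 and 6.46 CPM after M1 and 4.23, 4.15 and 3.90 CPM after M2. The groups did not overlap, with M1 highest and M0 lowest. M1 was 3.02-fold above M0 (log2 1.60 ± 0.16, adjusted p = 4.64e-07) and M2 1.64-fold above M0 (adjusted p = 0.00418). GAS6 itself was at 131 ± 13.0 CPM after M1 and 115 ± 4.54 CPM after M0 (SD, n = 3; log2 0.19, adjusted p = 0.073). It passed the test for M1 against M2 (log2 0.41, adjusted p = 0.0017).

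After M1 medium 11 members were below both M0 and M2. Beside LINC00707, LINC00460 and LINC01085, these were LINC00601, LINC00941, LINC01133, LINC01184, LINC01278, LINC01605, LINC02001 and LINC02084. LINC02084 fell from 3.17, 3.28 and 4.25 CPM in Ctrl to 1.32, 0.978 and 1.05 CPM after M0 and to 0.431, 0.480 and 0.436 CPM after M1. These 3 groups did not overlap, and M1 against Ctrl was log2 -2.98 ± 0.14 (adjusted p = 2.87e-09). LINC02084 had 373 reads in Ctrl, 90 after M0, 48 after M1 and 83 after M2. Without the Ctrl reads its total would be below the threshold of 300, so it was a member only through Ctrl. LINC01605 fell against Ctrl, with log2 -1.89 ± 0.21 after M1 and -0.90 ± 0.08 after M0. LINC00601 and LINC01278 were called lower than Ctrl only after M1, as LINC00460 was, with log2 -1.17 and -0.77. LINC00511, a much studied cancer-associated RNA that overlaps exons of another gene on the other strand, was highest in Ctrl (6.39, 5.63 and 5.44 CPM) and lowest after M1 (0.938, 0.832 and 0.846 CPM), with M1 against M0 at log2 -1.15 ± 0.16 (adjusted p = 0.000114). Its M1 and M2 levels did not pass the test against each other (adjusted p = 0.0845).

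LINC01133 was the single member above both M0 and M1 after M2 medium. It had 6 reads in Ctrl, 150 after M0, 88 after M1 and 455 after M2. Without the M2 reads its total would be below the threshold of 300, so LINC01133 was a member only through that group. It lies on chromosome 1 (ENSG00000224259, chr1:159961218-159984750, plus strand), and in colorectal cancer cells it is described as binding the splicing factor SRSF6. Each Ctrl library had 2 reads of it, below the 3 reads that a count of 0 allows (0.0699 to 0.138 CPM over the 12 libraries). It was at 1.69, 3.40 and 0.946 CPM after M0, 0.913, 0.928 and 0.627 CPM after M1 and 3.69, 5.96 and 5.40 CPM after M2. The M2 libraries lay above all others, and the M0 libraries, which varied most, lay above those of M1 by a narrow margin. In pooled reads M2 was 83.9 times Ctrl (95% exact interval 38.2 to 230, counting error only), M0 31.5 times (14.1 to 87.3) and M1 13.6 times (6.02 to 38.1). The edgeR test called all 3 higher (adjusted p = 3.76e-08, 3e-06 and 0.000118). On the deposited variance-stabilized scale these log2 differences were 3.57, 2.35 and 1.54, against 6.36, 5.00 and 3.76 in the count fit. M2 was 2.56-fold above M0 (log2 1.36 ± 0.56, adjusted p = 0.00617), and that call was lost when M0 replicate 3 and M2 replicate 2 were both left out (log2 0.87). M1 was 6.05-fold below M2 (adjusted p = 2.55e-05).

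LINC00174 (chr7:66376044-66493566, minus strand) rose after all 3 media, least after M0. It was at 0.548, 0.335 and 0.438 CPM in Ctrl, 1.08, 0.698 and 0.806 CPM after M0, 3.40, 2.88 and 3.08 CPM after M1 and 2.14, 2.84 and 2.79 CPM after M2. None of the groups overlapped. M1 was 3.57-fold above M0 (log2 1.84 ± 0.19, adjusted p = 3.98e-06) and M2 2.94-fold above M0 (adjusted p = 0.000554), while M1 against M2 did not pass (log2 0.28 ± 0.15, adjusted p = 0.237). Its exons overlap several pseudogenes on its own strand, so its counts are uncertain. In all 9 members were lower after M0 than after both M1 and M2. LINC00969 (now MUC20-OT1), whose exons overlap MUC20 and a pseudogene of SDHA, was at 1.72, 0.885 and 1.09 CPM after M0 and at 3.12, 3.33 and 2.58 CPM after M2. Its highest mean was in Ctrl. Against Ctrl it was called lower after M0 and M1 and was not called after M2. M2 was above M0 by log2 1.26 ± 0.29 (adjusted p = 0.00364). This call too was lost without both M0 replicate 3 and M2 replicate 2 (log2 1.09).

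LINC00517, LINC00973 and LINC02454 had the 3 largest falls from M0 to M2 medium among members whose groups did not overlap. LINC00517, annotated antisense to TTC6, was at 66.1, 79.3 and 78.5 CPM in Ctrl, 24.1, 15.6 and 25.2 CPM after M0, 20.7, 15.4 and 18.0 CPM after M1 and 12.9, 9.33 and 9.73 CPM after M2. M2 was lowest, and it was 2.03-fold below M0 (log2 -1.02 ± 0.27, adjusted p = 0.00132) and 6.96-fold below Ctrl (adjusted p = 1.34e-09). LINC00973 was highest after M0 (12.2, 10.1 and 14.1 CPM) and at 7.38, 5.89 and 7.08 CPM after M2, a log2 difference of -0.84 ± 0.17 (adjusted p = 0.00112). Its M2 level against Ctrl was log2 0.07 ± 0.14 (adjusted p = 0.685). LINC02454 was at 1.35, 1.72 and 1.44 CPM after M0 and 0.895, 1.06 and 0.787 CPM after M2. Its call (log2 -0.70 ± 0.16, adjusted p = 0.0294) was lost under 5 of 19 alternatives, 4 of which left out 1 library (M0 replicate 2 with log2 -0.61, M0 replicate 3 with -0.73, M2 replicate 1 with -0.68, or M2 replicate 3 with -0.62).

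A further group moved by conditioning and showed no call among the media. Of the 26 members above Ctrl after all 3 media, 14 had no call among M0, M1 and M2. LINC01152 (chr17:72030291-72041297, plus strand) was the strongest of these, at 0.411, 0.402 and 0.375 CPM in Ctrl, 2.19, 1.96 and 1.82 CPM after M0, 1.60, 1.98 and 1.80 CPM after M1 and 1.87, 2.27 and 2.00 CPM after M2. The 9 libraries in conditioned medium overlapped among themselves and lay above Ctrl. The log2 fold changes were 2.32 ± 0.08, 2.16 ± 0.09 and 2.35 ± 0.09 for M0, M1 and M2 (adjusted p = 1.12e-07, 1.14e-07 and 5.8e-08). Of the 20 members below Ctrl after all 3 media, 9 had no call among the media. LINC00641 was at 28.9, 19.4 and 15.6 CPM in Ctrl, a wide range, and between 4.19 and 7.19 CPM in the other 9 libraries. It fell after each medium, with log2 -2.10 ± 0.29 after M0, -2.06 ± 0.30 after M1 and -1.70 ± 0.27 after M2. LINC00094, counted here as a LINC gene although annotated as coding, fell from a mean of 64.6 CPM to between 24.9 and 26.7 CPM. LINC01024 (MALINC1, described as a mitosis-associated RNA) fell likewise, with log2 -1.65, -1.70 and -1.47. It had 226 reads in Ctrl, 55 after M0, 71 after M1 and 73 after M2. Without the Ctrl reads its total would be below the threshold of 300, so it was a member only through Ctrl.

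LINC00662 (chr19:27684580-27793940, minus strand) rose most after M0. It was at 11.4, 10.8 and 12.04 CPM in Ctrl, 47.6, 43.9 and 55.5 CPM after M0, 40.1, 39.1 and 37.9 CPM after M1 and 43.2, 37.0 and 41.1 CPM after M2. The log2 fold changes against Ctrl were 2.11 ± 0.11 for M0, 1.78 ± 0.05 for M1 and 1.83 ± 0.08 for M2 (adjusted p = 4.64e-11, 1.85e-10 and 2.2e-10). M1 and M2 were both below M0 (log2 -0.33 and -0.28). Genes on the other strand overlap its exons. LINC01444 (chr18:14969001-14970468, minus strand) fell from 3.59, 3.65 and 4.003 CPM in Ctrl to 0.911, 0.419 and 1.44 CPM after M0, and was at 0.482, 0.352 and 0.436 CPM after M1 and at 0.407, 0.674 and 0.286 CPM after M2. The conditioned groups overlapped each other and none reached Ctrl. M1 and M2 were both called below M0 (log2 -1.15 ± 0.49, adjusted p = 0.015, and -1.07 ± 0.57, adjusted p = 0.0462). M1 against Ctrl was log2 -3.12 ± 0.13 (adjusted p = 1.87e-07) and M2 against Ctrl -3.04 ± 0.32 (adjusted p = 4.03e-07). LINC01444 had 394 reads in Ctrl, 77 after M0, 46 after M1 and 42 after M2. Without the Ctrl reads its total would be below the threshold of 300, so it was a member only through Ctrl. LINC01021 (PURPL, a target of p53) was below Ctrl after M1 and M2, with log2 -0.60 and -0.53, and at log2 -0.49 after M0, which did not pass.

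Per kilobase of exon, the most abundant members were LINC00941, LINC01116 and LINC01436, at 22.5, 16.6 and 11.7 CPM per kb as means over all 12 libraries. In Ctrl alone the order was LINC01116 (20.5 CPM per kb), LINC00517 (18.1) and LINC00941 (14.5), with LINC01436 at 5.96. LINC00941 (chr12:30755167-30802602), described in colorectal cancer as acting on SMAD4, was at 16.7, 21.5 and 20.6 CPM in Ctrl, 39.4, 36.6 and 34.2 CPM after M0, 31.1, 23.7 and 30.5 CPM after M1 and 38.7, 36.0 and 37.0 CPM after M2. All conditioned libraries lay above Ctrl, with M1 below both other media (log2 -0.37 ± 0.14 against M0, adjusted p = 0.0104). Exons of other annotated genes overlap it on its strand. LINC01116 (chr2:176629589-176637931) was lower than Ctrl after each medium by a like amount, log2 -0.42 ± 0.06, -0.40 ± 0.06 and -0.43 ± 0.07. The joint test among the media gave it an adjusted p of 0.905. LINC01436 (chr21:36005338-36007838) lies 671 bp from RUNX1 and was higher after each medium, by log2 1.05 ± 0.12, 1.29 ± 0.12 and 1.23 ± 0.12. RUNX1 was higher as well, by log2 0.29, 0.38 and 0.24 (adjusted p = 0.0108, 0.00131 and 0.0282).

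The nearest protein-coding gene lay within 10 kb of 39 members, 21 of which it overlapped, and the median distance was 17666 bp. For M1 against M0, 36 of the 46 called members had a neighbour that was tested: 15 neighbours were called in the same direction, 8 in the opposite one and 13 were not called. For M1 against M2, 22 neighbours were tested, 9 were called in the same direction, none in the opposite one, and 13 were not called. Of those 9, 7 lay over 10 kb from the member. Among all protein-coding genes 56.3% were called for M1 against M0, 27.1% higher and 29.2% lower. For M1 against M2 it was 35.8%, with 17.4% higher and 18.4% lower. For M0 against Ctrl, 46 were tested, with 13 in the same direction, 14 in the opposite one and 19 not called, beside 64.7% of protein-coding genes called. Same and opposite directions numbered 2 and 1 of 17 tested for M2 against M0, beside 27.7% of protein-coding genes called. They numbered 20 and 16 of 52 for M1 against Ctrl, beside 73.7% of protein-coding genes (36.3% higher, 37.4% lower). For M2 against Ctrl they numbered 17 and 13 of 45, beside 70.1% (35.3% higher, 34.8% lower). These neighbour counts are descriptions with no test.

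The largest matched change was at LINC02081, whose neighbour DNAH17, an axonemal dynein heavy chain gene 27.8 kb away on the same strand, was at 3.67 ± 1.06 CPM after M1 and 0.144 ± 0.109 CPM after M0 (SD, n = 3). In pooled reads M1 was 24.7 times M0 for DNAH17 (95% exact interval 14.0 to 48.3, on 403 and 12 reads). EFNB2, which encodes the ligand ephrin-B2 and lies 105.4 kb from LINC00460, was lower after M1 than after M0 (log2 -0.80, adjusted p = 0.000305). It was higher after M2 than after M0 (log2 0.93, adjusted p = 0.00085), where LINC00460 had log2 0.09. C13orf46, 24.9 kb from LINC00565, was above M0 after both M1 (log2 1.13) and M2 (log2 0.57), as LINC00565 was. TPST1, a tyrosylprotein sulfotransferase gene that overlaps LINC00174 on the other strand, was higher after M1 than after M0 (log2 1.03, adjusted p = 1.26e-06). It was not called for M2 against M0 (log2 0.11), where LINC00174 rose by log2 1.56.

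Some pairs moved apart. SOX9, a transcription factor gene of the neural crest lineage 79.7 kb from LINC01152, fell from 56.7 ± 7.10 CPM in Ctrl to 20.9 ± 2.53 CPM after M0, 12.7 ± 1.35 CPM after M1 and 15.4 ± 0.221 CPM after M2 (SD, n = 3). The log2 fold changes of SOX9 were -1.45, -2.15 and -1.88, while LINC01152 rose after all 3 media. SOX9 is also in the list of dedifferentiated melanoma markers. BOD1L1, 484.2 kb from LINC01085, was higher after M1 than after M0 by log2 0.68 (adjusted p = 0.000393), where LINC01085 fell.

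**Figure D4:**
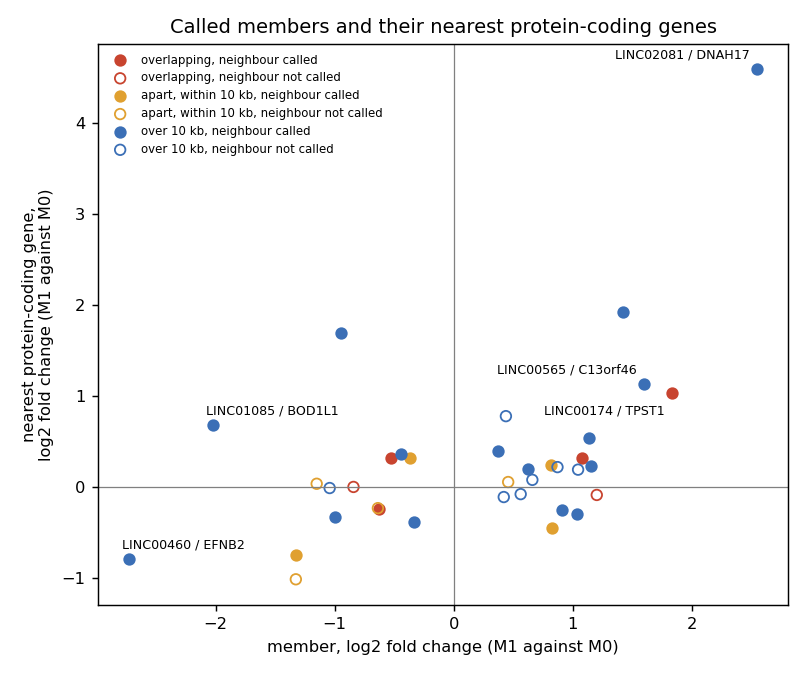
Log2 fold change of M1 against M0 for called members (horizontal axis) and for their nearest protein-coding gene (vertical axis). Each of the 36 points is 1 pair, colour gives the distance between the genes, and filled points are neighbours that were called. LINC02081 with DNAH17 lies at the upper right and LINC00460 with EFNB2 at the lower left.

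Characterised long noncoding RNAs without a LINC number gave a frame for these levels. Of 60 listed, 39 were tested. For M1 against M0, 13 were higher, 9 lower and 17 not called, beside 52.2% of all genes called. For M0 against Ctrl 14 were higher, 14 lower and 11 not called, beside 61.7% of all genes called. PSMB8-AS1, antisense to the immunoproteasome subunit gene PSMB8, had the largest rise after M1 (log2 2.82 ± 0.34 against M0, adjusted p = 1.94e-06), and its reads cannot be told apart from those of PSMB8 without the strand setting. DANCR fell after M1 (log2 -1.65 ± 0.15 against M0, adjusted p = 1.41e-07), from 16.0 ± 1.31 to 5.06 ± 0.778 CPM. Of those listed, EPB41L4A-AS1 had the largest rise after M0 against Ctrl (log2 1.93). The snoRNA host genes GAS5 and ZFAS1 were higher than Ctrl after M0 by log2 1.41 and 1.66. MIR210HG, the host of a hypoxia-responsive microRNA, fell after M0 (log2 -2.84 ± 0.13 against Ctrl, adjusted p = 1.24e-07). Nuclear MALAT1 varied widely within Ctrl (81.3, 52.3 and 36.0 CPM) and was higher after M1 than after M0 (log2 0.81, adjusted p = 0.0103).

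The libraries held 21788397 to 42921242 counts. Of 10 melanocytic markers 2 passed the filter, RAB27A (means of 25.0 to 37.8 CPM) and MITF (1.17 to 3.10 CPM). Another 7 had under 10 reads over the whole series, TYR and S100B none, and the summed level ran from 25.4 to 42.8 CPM. Of 10 dedifferentiated melanoma markers 8 were tested, with summed levels of 12960 to 14250 CPM in Ctrl, 14180 to 15070 after M0, 18780 to 20140 after M1 and 15440 to 15840 after M2. VIM and FN1 made up most of that sum, and 2 other listed genes went the other way, AXL from a mean of 2444 CPM in Ctrl to 1254 after M1 and SOX9 from 56.7 to 12.7. Of 17 macrophage markers 1 (MSR1) was tested and 4 had no read (MARCO, FCGR3A, AIF1 and C1QB), and the summed level of all 17 was 0.759 to 1.496 CPM. MSR1 had means of 0.182 CPM in Ctrl, 0.561 after M0, 0.724 after M1 and 0.643 after M2. CD14, with 28 reads in all, went the other way, from 0.188 CPM in Ctrl to 0.0113, 0.0357 and 0.0209 CPM. The part of these marker levels in any member's change was not tested.

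One library stood apart among genes of low counts. M2 replicate 2 had reads on 690 numbered LINC genes, where the other 11 libraries had reads on 334 to 416, and on 3759 genes of any kind seen in no other library (160 to 453 elsewhere). Of its 690, 595 were below the threshold of 300 reads, and these held 70.4 CPM there and 44.9 to 56.1 CPM elsewhere. The members were not raised in it, with a median log2 ratio to the other M2 libraries of 0.02. Within groups, the median coefficient of variation over members was 11.5% in Ctrl, 14.9% in M0, 10.3% in M1 and 9.04% in M2. LINC01355 varied most in Ctrl (77.6%) and LINC01133 most in M0 (62.6%).

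**Figure D5:**
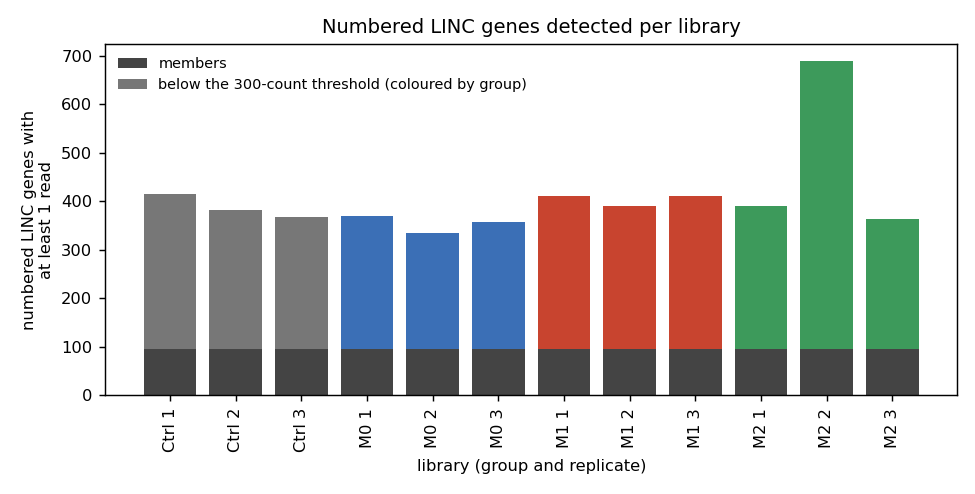
Number of numbered LINC genes with at least 1 read (vertical axis) in each of the 12 libraries (horizontal axis). The dark base of each bar is the 95 members and the upper part, coloured by group, the genes below the threshold of 300 reads. M2 replicate 2 reaches 690, and the other libraries 334 to 416.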

How the data were processed

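Total RNA of 12 MV3 samples (4 groups of 3) was made into stranded mRNA libraries and sequenced as 50 nt single reads in 2 runs, which the files do not separate, per the labels' protocols. Per the submitters' processing notes, the build was hg38 and the tools included STAR 2.5.4b, Bowtie2 2.2.3, Trimmomatic 0.36 and DESeq2 1.20.0. The tool, strand setting and gene models of the counting step were not given in the sources used. The authors deposited raw counts per gene, and the per-sample files equalled the columns of the table in 12 of 12 cases. They also deposited variance-stabilized values on a log2 scale, used here only in 1 alternative test.

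Groups and replicate numbers came from the labels. Counts of all 12 libraries were fitted together with edgeR 4.0.16 in R 4.3.3 (quasi-likelihood F test, TMM scaling, filterByExpr with a minimum count of 10 and a minimum total of 15), which left 14088 genes, with Benjamini-Hochberg adjustment over all of them at 0.05. Levels are TMM-scaled CPM. Each SE was computed from log2 CPM (prior count 2) in the 3 libraries of either group, not from the fit that gave the fold change. Intervals and the floor of 3 counts cover counting error only. The fit was tested on simulated data. Alternatives used limma 3.58.1, DESeq2 1.42.0, DESeq2 size factors, no filter, only the groups compared, a replicate term, leaving out libraries, and only members free of opposite-strand genes.

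Coordinates and neighbours came from GENCODE release 29 (GRCh38), which matched 82 members with their version and all 95 without it. Promoters came from RefSeq. Genes named were those in the rule, the 3 highest and 3 lowest called fold changes of each comparison where the groups did not overlap and the higher one reached 0.5 CPM, and the 3 highest levels per kb. LINC00511, LINC00327, LINC00601, LINC01605, LINC01679, LINC02084 and the other members, neighbours and noncoding RNAs named beside them were picked with their values in view. The members and lists were chosen with earlier results of these data known.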

Additional observations from a re-analysis of the deposited data

How the results depend on the processing

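Of 48 pairs of a named member and a comparison, 42 kept their direction and their side of the threshold in all 19 alternatives. The exceptions were LINC01133 and LINC00969 for M2 against M0, LINC02454 for M2 against M0, LINC00707 for M2 against M0 (called without the filter on low counts, log2 -0.36), and LINC00460 for M2 and for M0 against Ctrl. The last was called with the replicate block (log2 -0.46), without the filter (log2 -0.50), and when Ctrl replicate 1 (log2 -0.72) or M1 replicate 1 (log2 -0.49) was left out. Members called numbered 37 to 48 for M1 against M0 when 1 library was left out, 10 to 25 for M2 against M0, 20 to 31 for M1 against M2, 53 to 65, 58 to 68 and 52 to 63 for M0, M1 and M2 against Ctrl, and 38 to 52 for any difference among M0, M1 and M2. Without both M0 replicate 3 and M2 replicate 2, the count for M2 against M0 was 5, and the cause was not tested. The shares of all genes called without these libraries are not given here. A loss of calls common to all genes therefore cannot be told apart from one of the members. Another alternative kept only the 47 members with no gene on the opposite strand. It left 21, 11 and 14 called for M1 against M0, M2 against M0 and M1 against M2. Against Ctrl it left 26, 31 and 28 for M0, M1 and M2, and for any difference 23. Fewer members lower every count, but the share called also fell in every comparison except M1 against M2, and in the joint test. It fell most for M0 against Ctrl, to 26 of 47, beside 62 of 95 (65.3%) in the full set and 61.7% of all genes. For M1 against M0 it was 21 of 47, beside 48.4% in the full set and 52.2% of all genes. In these 2, in M2 against Ctrl and in the joint test, this subset was more than 5 percentage points below all genes. For M1 against M2 it was 14 of 47, beside 28 of 95 (29.5%). The part of opposite-strand genes in these shares was not tested. Same-numbered samples of different groups had correlations of -0.0775 to 0.1541 between their deviations from the group means, with 6 of 18 pairs above 0.1. Other pairs had correlations of -0.2179 to 0.2063, and 8 of 12 samples were closest to their own number. These values do not decide whether the numbers mark pairs, and the main fit did not use them as such. With the replicate number as a block the counts were 46, 23, 28, 64, 66, 59 and 50 in the same order, each within 1.5 times the count without it. Members with few reads in a group, such as LINC01133 in Ctrl, are limited by depth.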
